A study of Mus musculus with 6 samples.

Results

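The tumor necrosis factor (TNF) superfamily was measured as 44 genes, 16 ligands and 28 receptors, among 22180 genes on expression arrays. The genes were taken by name: symbols beginning with Tnfsf or Tnfrsf and a digit, and Tnf, Lta, Ltb, Ltbr, Fas, Fasl, Cd40, Cd40lg, Cd27, Cd70, Eda, Edar, Eda2r, Ngfr and Relt, each from a probe set annotated to that gene alone. Each of the 44 had 1 such probe set, so none was picked among several by its level, but the family itself was chosen with earlier results of these data known. Tnfsf12 and Tnfsf13, which lacked a probe set of their own, were not analysed here.

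The RNA came from cells that the labels call tumor-associated endothelial cells, pulled from mouse gliomas with magnetic beads and an antibody against CD105 (endoglin) and then held in glioma-conditioned medium for 12 h. Each of the 6 arrays held cells of 1 mouse. The first group was Tie2-Cre,Pfn1fl/fl:Y129F (Tie2-Cre mice 1, 3 and 4). The second was Pfn1fl/fl:Y129F (no Cre mice 6, 7 and 10), so both groups carried floxed Pfn1, the gene of the actin-binding protein profilin-1, and its Y129F form, and they differed by the Cre transgene. Tie2-Cre is active in endothelial cells and also in much of the blood lineage. Neither age nor sex of the mice, nor how Cre rearranges the alleles, is given in the sources used here. The series is titled for profilin-1 phosphorylation, but as labelled both groups carry Y129F and the contrast is between mice with and without Cre.

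Most TNF superfamily ligands are trimers anchored in the cell membrane, and they act on neighbouring cells or, once cut off by proteases, at a distance. Receptors with a death domain can recruit caspase-8 and trigger cell death, whereas the other signalling receptors bind TRAF adaptors and switch on NF-kB and stress kinases. Decoy and soluble receptors bind a ligand without passing on a full signal. In blood vessels the family is known for inflammatory activation of endothelium, for costimulation of T cells and for control of vessel growth.

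The arrays were much alike within a group (Pearson's r across genes 0.994 to 0.996) and less so between groups (0.986 to 0.988). Pfn1 itself lay at 12.41 ± 0.0045 log2 (SD, n = 3 mice) with Tie2-Cre and at 12.37 ± 0.026 without Cre (limma adjusted p 0.776). Whether its probe set can tell altered from unaltered Pfn1 was not tested. Of 12 endothelial markers, the sorting antigen Eng had a mean log2 intensity of 11.91 and was lower with Tie2-Cre (change -0.30, SE 0.064, adjusted p 0.0217). The other 11, among them Pecam1, Cdh5, Kdr and Cldn5, had means between 4.27 and 6.89, under the array medians of 7.08 to 7.14. No detection call states which of these were above background. Mean levels had a median of 6.20 over all 12 markers, 9.27 over 9 pericyte and smooth muscle markers and 10.5 over 8 fibroblast markers. Xist was at 5.36 to 6.06 log2 with Tie2-Cre and 11.16 to 11.44 without Cre, and the Y-linked Uty, Eif2s3y and Kdm5d were higher in all Tie2-Cre mice, so Cre and the sex of the cells cannot be told apart in any comparison here. In RNA from bulk cells, fewer cells of a type and less RNA per cell cannot be told apart either.

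The promoters of 4 members are shown. They were picked from the 7 members that had a limma adjusted p under 0.05 and a listed promoter. Tnfrsf26, Tnfsf9 and Tnfrsf10b also had such an adjusted p, but no promoter was listed for them. Of those shown, the ligand genes Tnfsf18 and Tnfsf15 and the receptor gene Tnfrsf9 were lower with Tie2-Cre, and the receptor gene Tnfrsf12a was higher. The 250 bases before the RefSeq transcription start (build GRCm38.p6) are printed in the direction of transcription, in lower case, with matches to TATAAA, to the AP-1 motif TGANTCA or to the NF-kB consensus in capitals, both strands having been searched. Tnfsf18 is at chr1:161494407-161494656 on the plus strand, Tnfsf15 at chr4:63745060-63745309 on the minus strand, Tnfrsf9 (the downstream of 2 listed starts) at chr4:150927749-150927998 on the plus strand and Tnfrsf12a at chr17:23677450-23677699 on the minus strand.
Tnfsf18: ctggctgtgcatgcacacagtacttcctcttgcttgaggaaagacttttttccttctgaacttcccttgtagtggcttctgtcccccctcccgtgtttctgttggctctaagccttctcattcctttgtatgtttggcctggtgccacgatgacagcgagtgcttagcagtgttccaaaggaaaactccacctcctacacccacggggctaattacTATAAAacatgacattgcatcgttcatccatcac
Tnfsf15: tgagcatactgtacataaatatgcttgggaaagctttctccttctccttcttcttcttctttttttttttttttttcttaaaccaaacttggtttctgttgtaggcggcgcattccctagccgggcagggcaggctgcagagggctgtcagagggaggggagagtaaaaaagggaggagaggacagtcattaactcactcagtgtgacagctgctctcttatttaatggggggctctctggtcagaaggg
Tnfrsf9: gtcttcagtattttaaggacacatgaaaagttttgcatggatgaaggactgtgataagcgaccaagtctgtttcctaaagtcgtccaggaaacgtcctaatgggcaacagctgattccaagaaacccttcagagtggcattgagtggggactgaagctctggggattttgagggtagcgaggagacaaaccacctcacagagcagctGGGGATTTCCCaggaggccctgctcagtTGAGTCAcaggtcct
Tnfrsf12a: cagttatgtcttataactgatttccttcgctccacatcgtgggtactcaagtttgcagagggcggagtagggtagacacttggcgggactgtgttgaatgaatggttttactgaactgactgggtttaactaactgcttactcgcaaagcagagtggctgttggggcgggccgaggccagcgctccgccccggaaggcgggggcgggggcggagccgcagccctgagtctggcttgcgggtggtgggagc

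The Tnfsf18 window held a TATAAA 34 to 29 bases before the start. In the Tnfrsf9 window, 2 overlapping NF-kB matches spanned the bases from 43 to 33 before the start, and an AP-1 match followed at 15 to 9. The windows of Tnfsf15 and Tnfrsf12a held none of the 3 motifs. Promoters were found for 35 of the 44 genes. Of these 35, the NF-kB consensus was present in 3 (Ltb, Tnfrsf8 and Tnfrsf9), TGANTCA in 5 and TATAAA in 7. These genes have 39 listed promoters, of which 3, 5 and 7 held the motifs. Counted likewise per promoter, the shares over all 32851 of the same length were 3.9%, 6.75% and 12.4%. A match is a run of letters and not a measured binding site.

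With Tie2-Cre, 9 of the 44 genes were lower and 1 was higher than without Cre, and 34 did not pass the threshold (Benjamini-Hochberg adjusted p under 0.05 over all 22180 genes, limma). The lower genes were the ligands Tnfsf18, Tnfsf15, Tnfsf9 and Eda and the receptors Tnfrsf26, Tnfrsf9, Tnfrsf1b, Tnfrsf23 and Tnfrsf10b, and the higher gene was the receptor Tnfrsf12a. Over all genes, 12.0% passed the threshold, 7.17% as lower and 4.78% as higher. A fall of at least 2-fold was seen in 4 members, Tnfsf18, Tnfrsf26, Tnfsf15 and Tnfrsf9, where the share over all genes was 0.771% (1.38% for 2-fold changes in either direction). The median log2 change of the 44 was -0.03 (-0.0042 over all genes), and was 0.0053 without no Cre mouse 10. The arrays of the groups did not overlap in 14 members, where the share over all genes was 31.0%. These 14 were the 10 past the threshold and Tnfrsf22, Tnfrsf11b, Lta and Tnfsf13b.

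**Figure D1:**
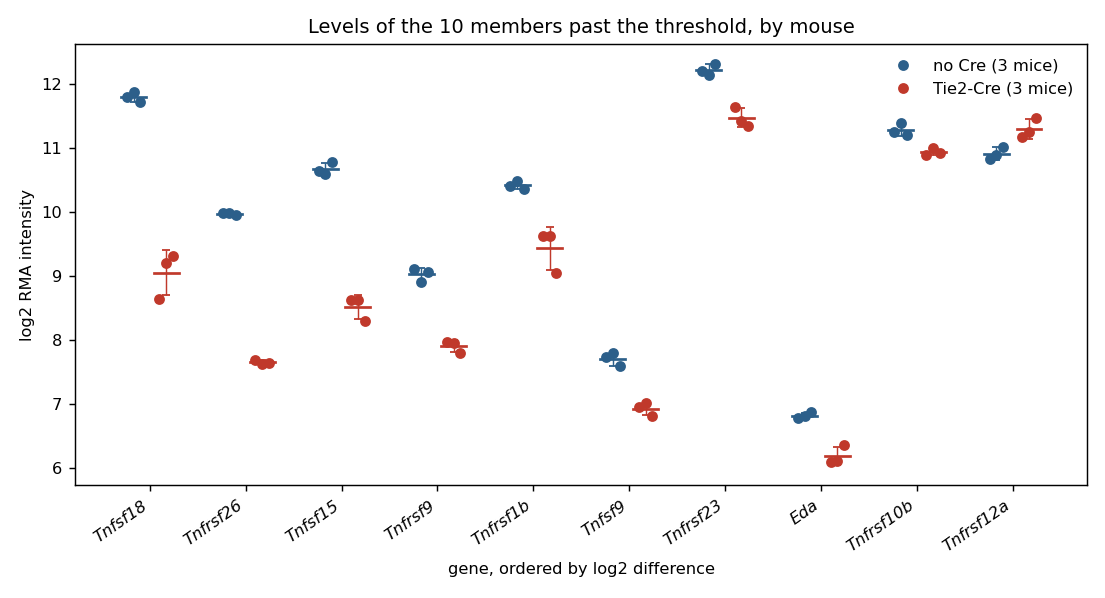
Log2 RMA intensity of the 10 TNF superfamily genes past the threshold in each of the 6 mice (points), with the mean (line) and SD (bar) of the 3 mice of a group, ordered by the difference between groups. In 9 genes the Tie2-Cre mice lie below all no Cre mice, and in Tnfrsf12a above them.

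Tnfsf18, the ligand of GITR, a costimulatory receptor of T cells, showed the widest gap of all ligands. Its log2 intensity was 8.65, 9.20 and 9.31 in Tie2-Cre mice 1, 3 and 4 and 11.80, 11.88 and 11.72 in no Cre mice 6, 7 and 10. The highest Tie2-Cre mouse was thus far under the lowest no Cre mouse, and mouse 1 was the lowest of its group. The change of -2.75 log2 (SE 0.16, 95% confidence interval -3.12 to -2.38, adjusted p 5.57e-05) is a 6.72-fold lower intensity. Its receptor gene Tnfrsf18 read 7.39, 7.26 and 7.26 with Tie2-Cre and 7.11, 7.30 and 7.37 without Cre. These values overlapped, and the interval of the receptor's change ran from -0.16 to 0.25.

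Tnfsf15 encodes TL1A, a cytokine made by endothelial cells that limits their growth and costimulates T cells. It read 8.62, 8.62 and 8.30 with Tie2-Cre and 10.64, 10.59 and 10.79 without Cre. All Tie2-Cre mice were lower, with mouse 4 the lowest, and the change was -2.16 (SE 0.11, adjusted p 2.19e-05). The gene of its death domain receptor DR3, Tnfrsf25, had a mean of 7.00 ± 0.11 (SD, n = 3) with Tie2-Cre and 7.05 ± 0.11 without Cre, with an interval of the change from -0.26 to 0.15.

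Tnfsf9 is a ligand that activated antigen-presenting cells show to T cells through the receptor encoded by Tnfrsf9. Among 27 known ligand and receptor pairs with both genes measured, this was the 1 pair in which both passed the threshold. In 8 pairs 1 partner passed and in 18 neither did, where 12.0% of all genes passed. The 8 share genes, as Tnfrsf1b is paired with Tnf and with Lta, and Eda with Edar and with Eda2r. Whether the partners that did not pass were above background was not tested. The ligand read 6.95, 7.01 and 6.82 with Tie2-Cre and 7.74, 7.80 and 7.59 without Cre (change -0.78, SE 0.085, adjusted p 0.00103). Its Tie2-Cre values lay under the array medians of 7.08 to 7.14, and whether they were above background was not tested. The receptor read 7.97, 7.95 and 7.79 with Tie2-Cre and 9.10, 8.91 and 9.07 without Cre (change -1.12, SE 0.084, adjusted p 0.000187). Neither gene had a Tie2-Cre mouse within the range of the no Cre mice. The printed Tnfrsf9 window holds the NF-kB and AP-1 matches, and the window of the gene's other listed start holds none of the 3 motifs.

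Eda, the ectodysplasin gene, whose product directs the growth of hair, teeth and sweat glands, is 1 of 3 X-linked members with Eda2r and Cd40lg. It read 6.10, 6.11 and 6.36 with Tie2-Cre and 6.78, 6.81 and 6.87 without Cre. It was lower in every Tie2-Cre mouse (change -0.63, SE 0.087, adjusted p 0.00295). All these values lay under the array medians of 7.08 to 7.14, and whether Eda was above background was not tested. Its receptor genes did not pass, with changes of 0.07 for Edar (interval -0.16 to 0.29) and -0.07 for Eda2r (-0.24 to 0.10). Cd40lg, the ligand of CD40 on activated T cells, changed by 0.07 (-0.17 to 0.30).

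The other 12 ligands did not pass the threshold, and their changes lay between -0.16 and 0.23. Their mean levels were 4.46 to 7.15 log2, where the array medians were 7.08 to 7.14. No detection call states which of them were above background, so a narrow interval may also belong to a gene that was not detected. Tnf, the founding cytokine of the family, read 6.53, 6.65 and 6.58 with Tie2-Cre and 6.36, 6.41 and 6.65 without Cre. Its change of 0.11 had an interval from -0.10 to 0.32. Lta, the gene of lymphotoxin alpha, had the smallest adjusted p of the 12 (0.233), at 6.67, 6.43 and 6.42 with Tie2-Cre and 6.39, 6.34 and 6.11 without Cre. Fasl, the death ligand of cytotoxic T cells, changed by 0.001 (-0.20 to 0.20) and Tnfsf10, the gene of the death ligand TRAIL, by -0.04 (-0.21 to 0.14). Tnfsf4, the ligand of OX40, was the least precise of the ligands, ranging from 5.37 to 6.18 among the no Cre mice, with an interval from -0.37 to 0.52. The ligands Ltb, Cd70, Tnfsf8, Tnfsf11, Tnfsf13b and Tnfsf14 made up the rest.

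**Figure D2:**
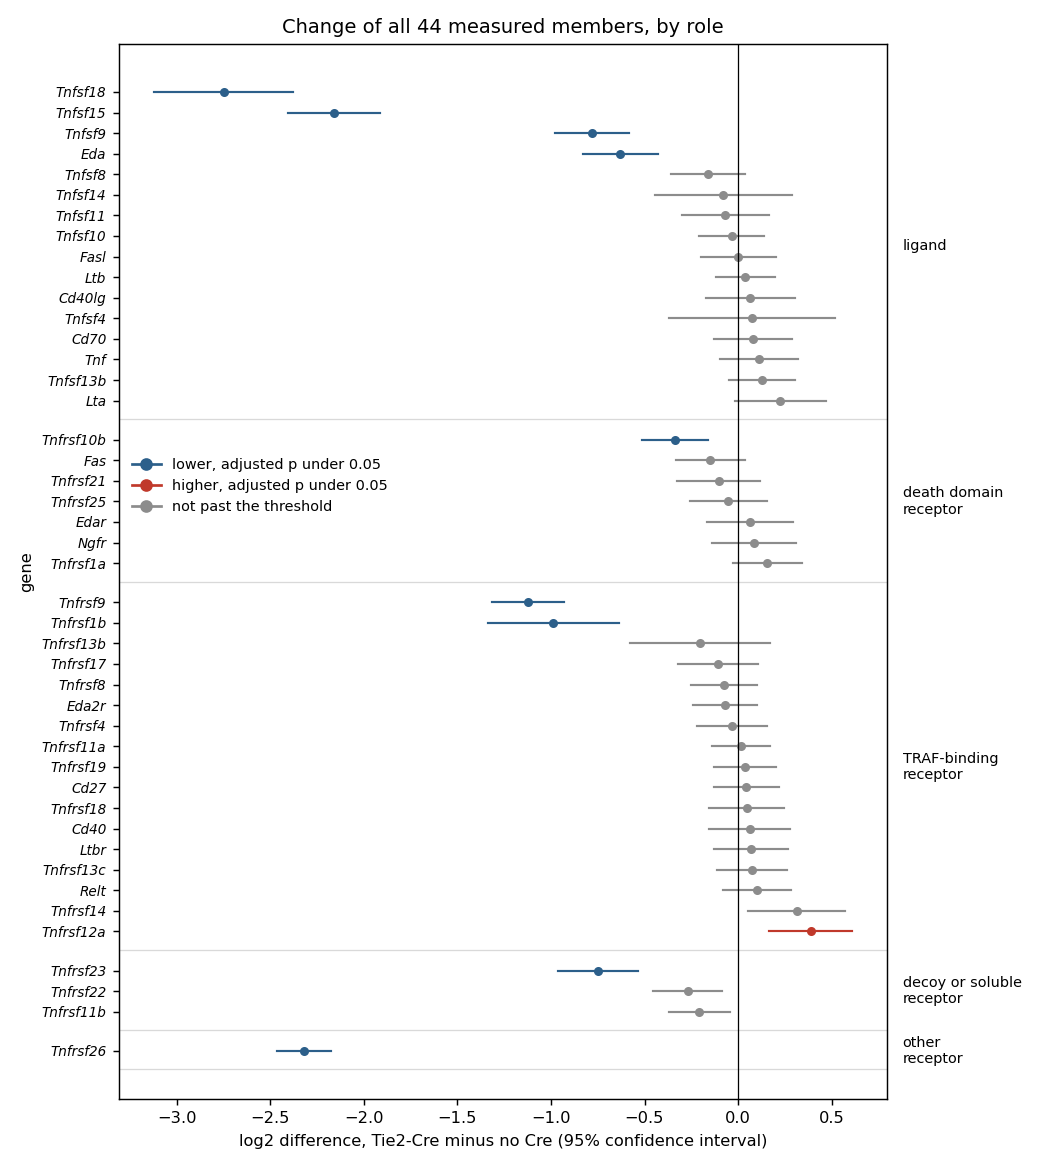
Log2 difference, Tie2-Cre minus no Cre, of all 44 members with 95% confidence intervals (lines), grouped by role; colour marks an adjusted p under 0.05. Most points lie near 0, and 4 members lie beyond a 2-fold fall.

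Of 7 death domain receptors, 1 was lower and 0 higher, where the shares over all genes were 7.17% and 4.78%. Tnfrsf10b, the mouse TRAIL receptor that can trigger apoptosis, read 10.90, 11.00 and 10.92 with Tie2-Cre and 11.25, 11.39 and 11.20 without Cre. The gap between groups was small beside the others (change -0.34, SE 0.076, adjusted p 0.0253). Leaving out 1 mouse ended this call for Tie2-Cre mice 1 and 4 (adjusted p 0.0774 and 0.0652) and for no Cre mice 6 and 7 (0.0649 and 0.0870). The remaining 6 had adjusted p of at least 0.280. Tnfrsf1a, the receptor through which soluble TNF acts on most cells, had a mean of 10.12 ± 0.12 (SD, n = 3) with Tie2-Cre and 9.97 ± 0.049 without Cre, and Fas, the receptor of Fas ligand, of 10.09 ± 0.098 and 10.24 ± 0.075. For Tnfrsf21, Ngfr, Edar and Tnfrsf25 the changes lay between -0.10 and 0.08.

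Among 17 receptors that bind TRAF proteins without a death domain, 2 were lower and 1 higher (7.17% and 4.78% over all genes). Tnfrsf1b encodes the TNF receptor that responds best to membrane-bound TNF and is found on endothelial and immune cells. It read 9.63, 9.62 and 9.05 with Tie2-Cre and 10.41, 10.48 and 10.36 without Cre. Mouse 4 was the lowest, and none of the Tie2-Cre mice reached the no Cre range (change -0.99, SE 0.15, adjusted p 0.00485). Tnfrsf9, given above beside its ligand, was the other lower gene of this class.

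Tnfrsf12a, the receptor of the cytokine TWEAK and a gene switched on in injured and growing tissue, was the 1 member that rose. It read 11.17, 11.26 and 11.48 with Tie2-Cre and 10.83, 10.90 and 11.02 without Cre (change 0.39, SE 0.097, adjusted p 0.0385). The groups did not overlap, but of the 6 fits with 1 mouse left out, the call held only in that without Tie2-Cre mouse 1 (adjusted p 0.0406). It ended when the mouse left out was Tie2-Cre 3 (0.0798) or 4 (0.0816) or no Cre 6 (0.122), 7 (0.111) or 10 (0.0600). Tnfrsf14, a receptor of lymphotoxin and of the ligand made from Tnfsf14, came next (change 0.31, SE 0.11, adjusted p 0.123) and did not pass. Over the other 13 receptors of this class, including Cd40, Cd27, Ltbr, Tnfrsf4, Tnfrsf8, Tnfrsf11a and Relt, changes lay between -0.20 and 0.10.

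The decoy and soluble receptors were all below 0 in change, and 1 of 3 passed, where 12.0% of all genes passed. Tnfrsf23, a mouse decoy receptor for TRAIL, read 11.64, 11.43 and 11.35 with Tie2-Cre and 12.21, 12.14 and 12.31 without Cre (change -0.75, SE 0.093, adjusted p 0.00186). Its close relative Tnfrsf22 read 8.46, 8.41 and 8.61 against 8.79, 8.82 and 8.68, groups that did not overlap, with a change of -0.27 (SE 0.080) that just missed the threshold (adjusted p 0.0707). It passed without Tie2-Cre mouse 4 (adjusted p 0.0454). Tnfrsf11b, the gene of osteoprotegerin, a soluble receptor that captures RANK ligand and TRAIL, had a change of -0.21 (SE 0.071, adjusted p 0.106).

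Tnfrsf26, a mouse receptor related to these decoys, showed the least scatter of the lower genes. It read 7.69, 7.63 and 7.64 with Tie2-Cre and 9.98, 9.98 and 9.95 without Cre, so that the mice of a group lay close together (SD 0.031 and 0.017) and the groups far apart. The change was -2.32 (SE 0.062, interval -2.46 to -2.17, adjusted p 1.89e-06), a 4.99-fold lower intensity. Tnfrsf22, Tnfrsf23 and Tnfrsf26 are related in sequence, and whether their probes read each other's transcripts was not tested.

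**Figure D3:**
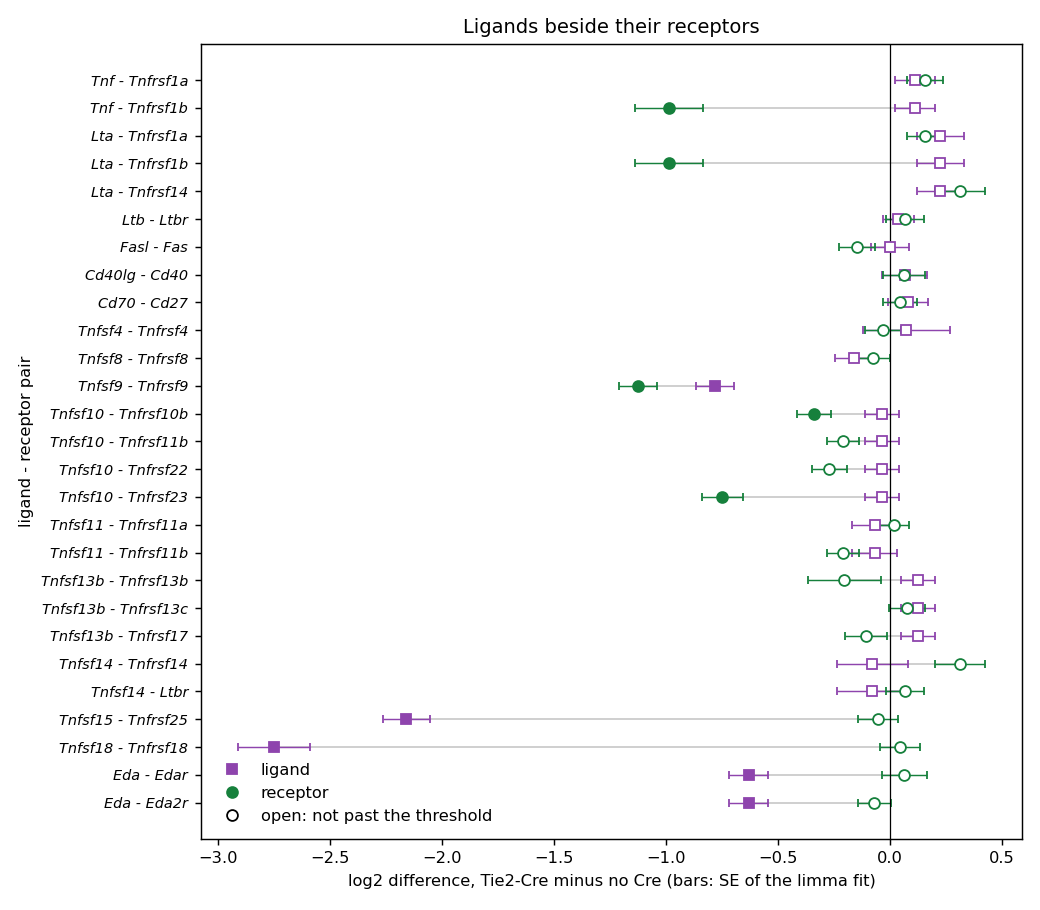
Log2 difference, Tie2-Cre minus no Cre, of each ligand (squares) beside its receptors (circles) with the SE of the fit; filled symbols have an adjusted p under 0.05. Tnfsf9 and Tnfrsf9 are the pair with both symbols filled, while Tnfsf18, Tnfsf15 and Eda are filled beside open receptors. Of these receptors, Tnfrsf18, Tnfrsf25 and Edar had means of 7.28, 7.03 and 6.75 log2 and Eda2r of 8.60. The array medians were 7.08 to 7.14, and whether genes with open symbols were above background was not tested.

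Several members are neighbours in the genome by the RefSeq order of protein-coding genes (GRCm38.p6), a feature the choice by name did not use. On chromosome 7, Tnfrsf26, Tnfrsf22 and Tnfrsf23 follow each other, with changes of -2.32, -0.27 and -0.75. The flanking genes, Cars for a tRNA synthetase and Osbpl5 for a lipid transfer protein, changed by 0.06 (SE 0.086, adjusted p 0.751) and 0.23 (SE 0.085, adjusted p 0.127) and did not pass. On chromosome 1, Tnfsf18 sits between Tnfsf4 (0.07, SE 0.19) and Fasl (0.001, SE 0.086), neither of which passed. Tnfsf15 on chromosome 4 is next to Tnfsf8, the ligand of CD30 (-0.16, SE 0.086, adjusted p 0.306), which did not pass, and beyond it lies the matrix gene Tnc (0.34, SE 0.068, adjusted p 0.0162), which was higher. On chromosome 17, Tnfsf9 is followed by Cd70 (0.08, adjusted p 0.655) and Tnfsf14 (-0.08, adjusted p 0.821), while Tubb4a, a tubulin gene on its other side, was lower (-1.28, SE 0.079, adjusted p 7.21e-05). On chromosome 4, Tnfrsf1b (-0.99) adjoins Tnfrsf8 (-0.07, SE 0.076, adjusted p 0.616) on one side and Dhrs3, for a retinal reductase, on the other, which was higher (0.83, SE 0.12, adjusted p 0.00379). Ltb, Tnf and Lta, adjacent on chromosome 17, had adjusted p of 0.796, 0.515 and 0.233.

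**Figure D4:**
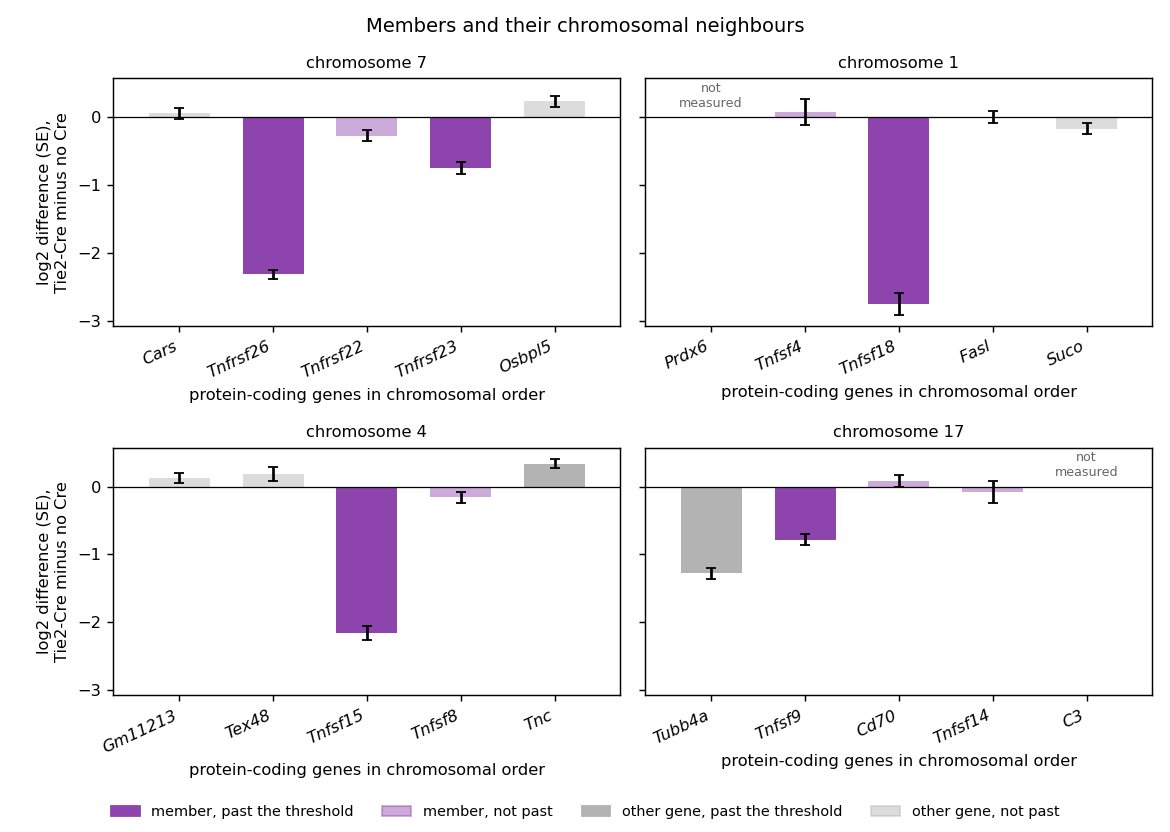
Log2 difference with the SE of the fit for members (purple bars) and the protein-coding genes beside them (grey bars) in chromosomal order, pale where the gene did not pass the threshold. Tnfsf18 and Tnfsf15 stand beside members near 0, and the 3 receptor genes on chromosome 7 all lie below 0.

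The genes that carry the receptors' signals were read from textbook lists. Of 21 measured adaptors and ubiquitin enzymes, 1 was higher, 1 lower and 19 did not pass, where 12.0% of all genes passed. Tnfaip3, a deubiquitinase that switches NF-kB off, changed by -0.73 (SE 0.14, adjusted p 0.0134), a call lost without no Cre mouse 7 (0.0519). Traf1, an adaptor induced by NF-kB, changed by 0.30 (SE 0.076, adjusted p 0.0418), and this call was lost when any 1 mouse was left out (0.0624 to 0.133). None of the 8 measured genes of the death branch, which include Casp8, Fadd and Cflar, passed by limma (adjusted p of at least 0.0878). At an unadjusted p under 0.05, 1 of them was higher and 1 lower (10.6% and 14.3% over all genes). With trend and robust eBayes 1 of them passed as lower, where 2121 of all 22180 genes did.

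In the NF-kB core, 4 of 10 measured genes were higher and 0 lower (6 and 0 at an unadjusted p under 0.05). Over all genes the shares were 4.78% higher and 7.17% lower, and 10.6% and 14.3% at the unadjusted p. Nfkbie, an inhibitor of NF-kB and itself its target, read 8.20, 8.37 and 7.86 with Tie2-Cre and 7.16, 7.16 and 6.88 without Cre (change 1.07, SE 0.14, adjusted p 0.00225). The inhibitor gene Nfkbib (0.37, SE 0.065, adjusted p 0.00906) and Ikbkg, the regulatory subunit of the IkB kinase (0.48, SE 0.091, adjusted p 0.0130), rose as well. Nfkb2, the precursor of the non-canonical pathway, changed by 0.46 (SE 0.12, adjusted p 0.0446) and kept its call only without Tie2-Cre mouse 4 (0.0853 to 0.123 without any of the others).

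Among 25 textbook targets of NF-kB, 6 rose, 4 fell and 15 missed the threshold (over all genes, 4.78% rose and 7.17% fell). Of the genes that rose or fell, 3 (Traf1, Nfkb2 and Tnfaip3) are also in the lists above. Tie2-Cre mouse 4 stood apart here and was the lowest of the 3 Tie2-Cre mice in 22 of the 25. Its mean over the list was 9.59 log2, where mice 1 and 3 had 9.92 and 9.97 and the no Cre mice 9.56 to 9.60. It was also the lowest of its group in 8 of the 10 NF-kB core genes and in 20 of the 44 members. Of the no Cre mice, mouse 10 was the lowest in 15 of the 25 targets and in 8 of the 10 core genes. Such counts were not taken over all genes. The chemokine genes Ccl5 (2.94, SE 0.22, adjusted p 0.000189) and Cxcl5 (2.01, SE 0.27, adjusted p 0.00257) and the leukocyte-binding selectin Sele (0.88, SE 0.15, adjusted p 0.00782) were higher. Cyclooxygenase-2 (Ptgs2, -0.48, SE 0.074, adjusted p 0.00494) was lower. Named beyond the 4 of smallest p, the leukocyte adhesion gene Vcam1 (-0.78, SE 0.17, adjusted p 0.0224) and Mmp9 (-0.44, SE 0.098, adjusted p 0.0248) were lower too. Tnfaip2 (0.35, SE 0.091, adjusted p 0.0458), likewise named beyond the 4, was higher. The calls of Vcam1, Mmp9 and Tnfaip2 were each lost when certain mice were left out. Sele and Mmp9 had means of 6.86 and 6.91 log2, under the array medians, and whether they were above background was not tested. Cxcl1, Ccl2 and Il6, all named after their values were seen, had adjusted p of at least 0.625. Without mouse 4, the distinct genes past the threshold over the 5 signalling lists numbered 14 higher and 5 lower, against 10 and 5 with all mice. The higher genes numbered 6 without Tie2-Cre mouse 3 or without any of the no Cre mice. The lower genes numbered 3 when Tie2-Cre 1 or no Cre 6 was the mouse left out, 1 when it was no Cre 7 and 2 when it was no Cre 10. Over all 22180 genes, 903 were higher and 1253 lower without Tie2-Cre mouse 4, against 1061 and 1591 with all mice. Without any 1 of the other mice, 634 to 815 of all genes were higher and 910 to 1239 lower.

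Of 5 genes that govern the shedding of ligands and receptors, 1 was higher and 1 lower, where 12.0% of all genes passed. The iRhom gene Rhbdf1 was higher (0.35, SE 0.078, adjusted p 0.0233) and Timp3, an inhibitor of the TNF-releasing protease, was lower (-0.48, SE 0.10, adjusted p 0.0189). The call of Rhbdf1 held only without Tie2-Cre mouse 1, and that of Timp3 only without Tie2-Cre mouse 4 (adjusted p of at least 0.0505 and 0.0572 without any of the others). The protease genes Adam17 (-0.08) and Adam10 (-0.11) did not pass.

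**Figure D5:**
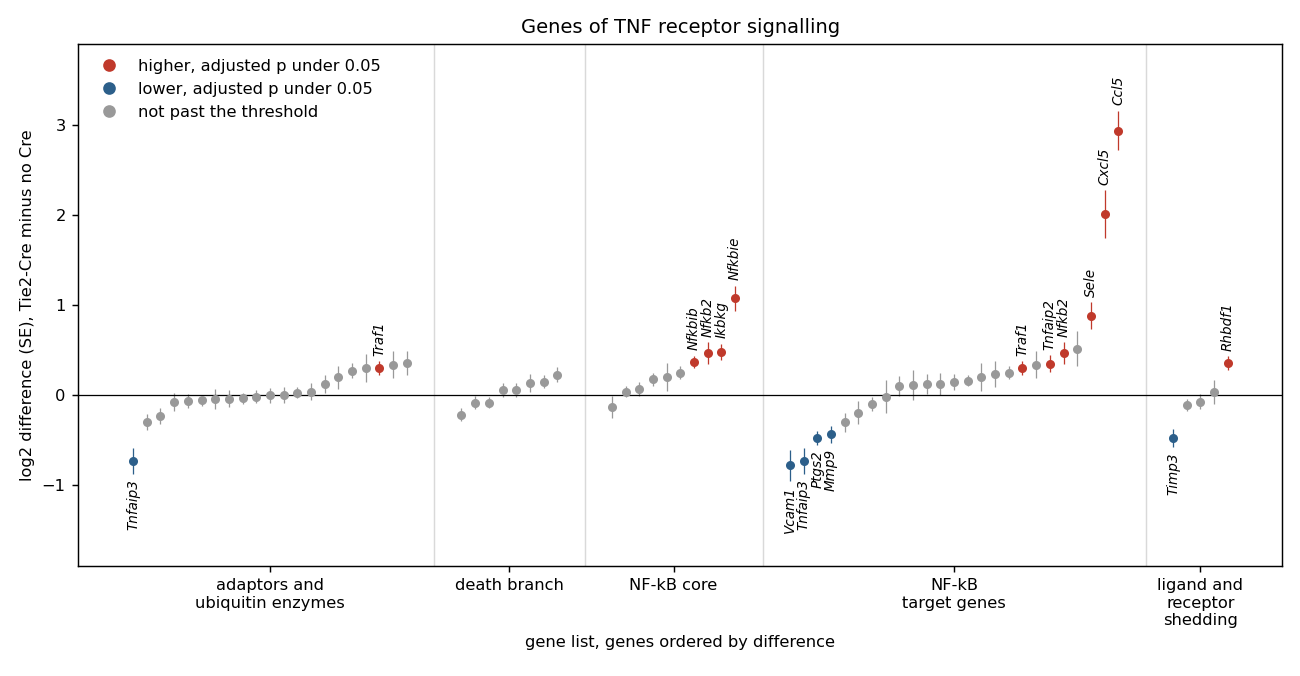
Log2 difference with the SE of the fit for each measured gene of 5 lists of TNF receptor signalling, ordered by difference within a list; colour and name mark an adjusted p under 0.05. Genes past the threshold lie on both sides of 0 among the NF-kB targets and above 0 in the NF-kB core.

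Markers of other cells moved between the same groups, where 4.78% of all genes were higher and 7.17% lower at the threshold. Of 6 mesothelial markers, 3 were lower (Upk1b by -3.29, Upk3b by -1.36 and Krt19 by -0.42), while Msln, Wt1 and Lrrn4 had adjusted p of at least 0.616, and the summed intensity of the 6 was 1001 to 1171 with Tie2-Cre and 3001 to 3341 without Cre. Of 9 pericyte and smooth muscle markers, 5 were higher and 0 lower, with sums of 23956 to 28362 and 16302 to 17332. Of 8 fibroblast markers, 3 were higher and 1 lower, with sums of 17016.5 to 19054.6 with Tie2-Cre and 18906.5 to 19170.5 without Cre. Of 7 astrocyte and glioma markers 1 was higher (Nes by 0.59). Macrophage and microglia markers were higher in 1 of 12 (Tmem119) and lower in 4 (Cd68, Lyz2, Csf1r and Fcgr3), with sums of 1630 to 1763 and 1768 to 1977. Of 8 neutrophil and monocyte markers, 2 were lower, with sums of 816 to 851 and 954 to 1104. In the lists of T and NK cells (9 measured), B cells (5) and dendritic cells (4), which carry many of these receptors, 0 genes passed by limma, with mean log2 levels between 5.28 and 7.24. At an unadjusted p under 0.05, 1 T and NK cell gene and 2 dendritic cell genes were higher and 0 B cell genes passed, where the shares over all genes were 10.6% higher and 14.3% lower. The part of any of these cells in the changes of the TNF superfamily was not tested.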

How the data were processed

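RNA of 6 mice, 3 in each group, was measured on Affymetrix Mouse Gene 2.0 ST arrays, with 1 array a mouse. Per the labels, the authors' deposited intensity values are RMA values from Affymetrix Expression Console, with software version and genome build not given in the sources used here. These deposited intensities are linear (5.13 to 17822) and log2 was taken here. RMA corrects background and quantile normalizes, and a dim gene's change may be understated, which was not tested. Of 41345 probe sets, 23521 had 1 symbol in the array annotation, 1814 several and 16010 none listed; the brightest probe set per symbol left 22180 genes. The groups were compared by limma 3.58.1 in R 4.3.3 (lmFit, eBayes, two-sided), with Benjamini-Hochberg adjusted p under 0.05 as the threshold; the 95% intervals come from that fit. The pipeline was tested on simulated data with independent noise for each gene and planted shifts, without a sex difference or a mixture of cells.

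The 44 members and all lists were chosen with earlier results of these data known, so counts over lists are descriptions without a test. Members past the threshold were named with every array's value, their ligands or receptors with values, and up to 4 genes past the threshold per signalling list; exceptions are marked. Nothing states whether the 6 mice shared litters or days. Precision is limited by the number of arrays, with a median SD over the members of 0.11 log2 with Tie2-Cre and 0.090 without Cre. Motifs and promoters were read with Python 3.11.15, and the motifs were chosen after the values were seen. Alternatives were other probe sets, filters, normalizations, variance models and call rules, and leaving out each mouse.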

Additional observations from a re-analysis of the deposited data

How the results depend on the processing

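The count of 9 lower members was 8 to 11 over the other 9 settings and 8 to 9 with a mouse left out, and the single higher member (1) became 0 with the probe sets without a single symbol added and with an unadjusted p under 0.05 and at least 1.5-fold, and was 0 to 1 with a mouse left out. Of the 10 members past the threshold, 8 kept their call under all 15 alternatives. The calls of Tnfrsf10b and Tnfrsf12a were lost, with the added probe sets at an adjusted p of 0.0683 and 0.0967. A direction could change only with renormalized or recentred arrays, array weights or a mouse left out, as the other settings keep the members' estimates. Averaging the probe sets of a gene left the members' own values as they were, since each had 1 probe set. Of the 34 others, Tnfrsf22 passed with the dimmest 33.3% of genes left out (0.0344), with trend and robust eBayes (0.0333) and without Tie2-Cre mouse 4, and Tnfrsf11b with trend and robust eBayes (0.0135); the estimates of 12 crossed 0 under some alternative, never past the threshold. The median change of the members was -0.055 to 0.0053 with a mouse left out. Signalling genes past the threshold, 10 higher and 5 lower, numbered 6 and 2 with the added probe sets, 4 and 2 by the unadjusted rule, and 8 lower with trend and robust eBayes. With a mouse left out they were 6 to 14 higher and 1 to 5 lower. Of all 40004 features with the added probe sets, 849 were higher and 1193 lower. Of all 22180 genes, 424 and 551 passed by the unadjusted rule, 1403 and 2121 with trend and robust eBayes, and 1061 and 1591 by the main rule. With a mouse left out, 634 to 903 of all genes were higher and 910 to 1253 lower. The cause was not tested. No paired analysis was possible because the mouse numbers differ between the groups. Filters left 42 members at a mean log2 of at least 5 and 32 with the dimmest 33.3% left out.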

Other observations

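A pair of gene families named for TNF lie outside the superfamily, and both were looked at after their values were seen. The C1q and TNF related proteins are secreted and share a fold with TNF ligands. Among 8 measured, 2 rose, 1 fell and 5 missed the threshold, where 12.0% of all genes passed. C1qtnf7 read 9.63, 9.52 and 9.13 with Tie2-Cre and 7.10, 7.42 and 7.05 without Cre (change 2.23, SE 0.15, limma adjusted p 0.000102), and C1qtnf2 rose by 0.91 (SE 0.15, adjusted p 0.00748). C1qtnf3, whose product is a secreted adipokine, was lower (-0.67, SE 0.069, adjusted p 0.000838).

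The genes with symbols beginning with Tnfaip, named for induction by TNF or as relatives of Tnfaip8, had 2 higher and 2 lower among 8 measured. Over all genes, 12.0% passed. Tnfaip6, which encodes a hyaluronan-binding matrix protein of inflamed tissue, read 6.81, 6.77 and 6.93 with Tie2-Cre and 7.84, 8.02 and 7.94 without Cre (change -1.10, SE 0.079, limma adjusted p 0.000155). Tnfaip1, for an adaptor of a ubiquitin ligase, rose by 0.45 (SE 0.069, adjusted p 0.00486). Tnfaip3 and Tnfaip2 are in the signalling lists, and Tnfaip8, Tnfaip8l1, Tnfaip8l2 and Tnfaip8l3 had adjusted p of at least 0.880.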
